A study of Homo sapiens with 6 samples.

Results

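Prostaglandin E2 (PGE2) synthesis and response genes were examined in SUM159 cells, a triple negative breast cancer (BC) cell line, with and without overexpression of miR-1287-5p. The set named 10 genes, from arachidonate release over the cyclooxygenases and PGE2 synthases to breakdown enzymes and receptors. A transcript cluster, the array's unit for a gene, carried the symbol of 8 of these genes in the annotation used here, among 14884 genes with a symbol and 53617 transcript clusters in all. PLA2G4A and PTGER2 had no transcript cluster with their symbol here and were not analysed. The pathway was chosen from the fold change of PTGES on these same arrays, which ranked 3 of 14884 genes from the highest. The values of PTGES between the groups are therefore given as a description with no test. The other genes were taken for their role, but with earlier results of these data known. A gene with more than 1 transcript cluster was represented by the brightest, judged by its mean over the 6 arrays.

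The groups were SUM159 cells stably transduced with lentiviral particles for mature miR-1287-5p (3 arrays) and SUM159 cells transduced with the empty control virus (3 arrays). Both carried a GFP-marked lentivirus, both had been selected with puromycin, and both grew in medium with 5% serum, insulin and 1 µg/ml hydrocortisone, a glucocorticoid. Total RNA of 1 culture was hybridized per Affymetrix Human Gene 2.0 ST array, and the values are log2 signals summarized by robust multi-array averaging (RMA). Nothing in the sources says whether the replicate cultures came from separate transductions, so the p-values measure the spread between these cultures only.

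PGE2 is a lipid mediator made from arachidonic acid. Phospholipase A2 enzymes release the fatty acid from membranes, the cyclooxygenases PTGS1 and PTGS2 convert it to the unstable prostaglandin H2, and terminal synthases turn this into PGE2. The hormone is inactivated by the dehydrogenase HPGD and by reductases, and it signals through the receptors EP1 to EP4, of which EP2 and EP4 raise cyclic AMP. In breast tumors the pathway is best known for PTGS2, the inducible cyclooxygenase, and for PTGES, the inducible microsomal synthase.

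The overexpressed microRNA is shown with its seed, bases 2 to 8, in capitals, since the seed governs which messages a microRNA pairs with. The RefSeq entry lies at chr10:98395271-98395292 (GRCh38.p14, minus strand), and no other mature human microRNA in the RefSeq table has this seed. The sites of the seed in messages were not analysed here.
hsa-miR-1287-5p: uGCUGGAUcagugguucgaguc

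PTGES had the only log2 fold change beyond 1 among the 8 genes, and its promoter is shown because it holds motifs of EGR1 and of a GC box side by side. EGR1 is a zinc finger factor known to drive transcription of human PTGES. The RefSeq promoter lies at chr9:129752993-129753292 (GRCh38.p14, minus strand) and runs from 250 bases before to 50 bases after the start of transcription. Capitals mark a GC box (GGGCGGG) at positions −89 to −83 and, directly after it, an EGR1 motif (GCGTGGGCG) at −82 to −74, counted from the start of transcription.
PTGES promoter: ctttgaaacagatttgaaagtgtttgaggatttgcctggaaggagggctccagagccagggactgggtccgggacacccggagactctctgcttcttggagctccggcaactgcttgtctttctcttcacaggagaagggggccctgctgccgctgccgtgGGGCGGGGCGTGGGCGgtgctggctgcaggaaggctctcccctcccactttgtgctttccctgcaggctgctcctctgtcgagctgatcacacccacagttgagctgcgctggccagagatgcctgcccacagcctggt
Searched on both strands, the EGR1 motif was found in 0.795% of 35116 RefSeq promoters of this length and the GC box in 33.1%. Among the promoters of the 10 genes, the EGR1 motif was found in that of PTGES and in 1 of the 3 promoters listed for PTGES2, while GC boxes were found in those of PTGES, PTGES2, PTGES3, HPGD, PTGR1, PTGER2 and PTGER4. A match describes these letters and does not show that a factor binds there.

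The promoter of PTGS2 is shown beside it, since the inducible cyclooxygenase supplies the substrate of PTGES. It lies at chr1:186680374-186680673 (GRCh38.p14, minus strand). Capitals mark a TATA box (TATAAA) at −32 to −27 and half-sites of the cyclic AMP response element (TGACG, here as CGTCA on the other strand) at −58 to −54 and at 25 to 29.
PTGS2 promoter: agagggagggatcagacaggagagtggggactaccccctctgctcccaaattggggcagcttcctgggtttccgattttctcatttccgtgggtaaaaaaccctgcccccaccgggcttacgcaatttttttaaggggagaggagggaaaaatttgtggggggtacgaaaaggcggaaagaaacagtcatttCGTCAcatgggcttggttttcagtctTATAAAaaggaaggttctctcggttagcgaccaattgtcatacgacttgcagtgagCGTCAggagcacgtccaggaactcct
Of all promoters, 11.5% held the TATA box and 24.6% the half-site. The promoter of PTGES held neither.

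The arrays resembled each other closely, with Pearson's r of 0.970 to 0.988 for each pair of arrays. Those r run over transcript clusters, not over independent samples. On the leading principal component of the 26808 transcript clusters with a mean log2 signal above the median (4.37), which held 55.7% of the variance, the overexpression arrays lay at 8.10, −14.6 and −36.0 and the control arrays at −41.5, 60.6 and 23.4. On this component control replicate 1 thus stood apart from the other control arrays, just past overexpression replicate 3. The second component (14.5% of the variance) gave another picture. There control replicate 1 had the lowest score (−32.8) and was the array farthest from the overexpression group, whose scores ran from 11.6 to 22.4. Control replicates 2 (−4.69) and 3 (−8.46) fell in between. Markers of the mesenchymal-like line were bright in both groups (AXL, CD44, FN1, SNAI2 and VIM, group means from 9.12 to 11.9). Of the hormone receptor and luminal markers read here, ESR1 and PGR lay below the median in both and GATA3 above it in both. FOXA1 lay near it (4.49 in overexpressing cells and 4.34 in control cells). The leukocyte marker CD68 was also bright (9.54 in overexpressing cells and 9.47 in control cells). The endothelial markers PECAM1 and VWF lay below the median in both groups. The epithelial marker EPCAM lay near it (4.54 in overexpressing cells and 4.14 in control cells). PYROXD2, in whose gene miR-1287 lies, was at a log2 fold change of 0.64 (95% interval 0.33 to 0.95, adjusted p = 0.767 from limma's test). No transcript cluster carries the symbol of the microRNA itself here, so the overexpression was not measured on these arrays.

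Counts of calls are given for the 7 genes other than PTGES, whose fold change led to the choice of the pathway. None of these 7 passed an adjusted p of 0.05 in limma (two-sided, with Benjamini-Hochberg correction for all transcript clusters), where 0.00373% of all transcript clusters did. At an unadjusted p under 0.05, 0 were higher and 1 was lower (PTGS1), against 2.96% and 2.44% of all transcript clusters. The groups did not overlap in 3 of the 7, 1 higher (PTGER4) and 2 lower (PTGS1 and PTGR1), against 6.88% and 4.33% of all transcript clusters. The median log2 fold change of the 7 genes was −0.02, beside 0.03 over all transcript clusters.

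**Figure D1:**
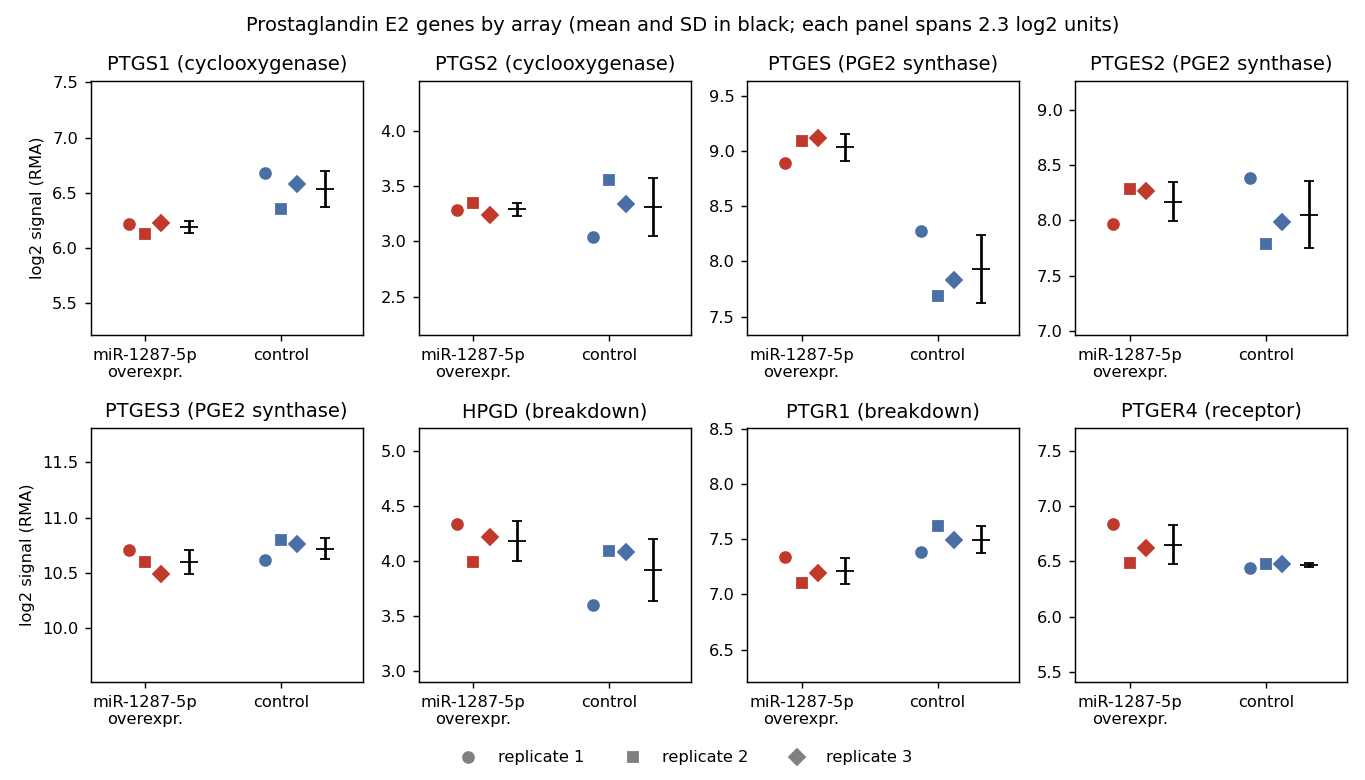
Log2 signal (vertical axis) of the 8 genes in each array, miR-1287-5p overexpression on the left and control on the right, with mean and SD (n = 3) in black; each panel spans the same range in log2 units. The overexpression arrays of PTGES lie between 8.89 and 9.12, all above the control arrays at 7.69 to 8.28, while in PTGS2, PTGES2, PTGES3 and HPGD the groups overlap.

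At the step of arachidonate release, few genes could be read and their log2 fold changes lay near 0. PLA2G4A, the cytosolic phospholipase A2 that supplies most arachidonate for prostaglandins, was not analysed, and of 18 genes listed for arachidonate release only 3 had a transcript cluster with their symbol. All 3 act on endocannabinoids or monoglycerides, from which arachidonate can also be freed. The monoglyceride lipase MGLL had a log2 fold change of −0.11 (95% interval −0.51 to 0.28), ABHD6 of 0.06 (−0.24 to 0.37) and the fatty acid amide hydrolase FAAH of 0.06 (−0.49 to 0.61). Of 9 measured genes for the activation and re-esterification of arachidonate, which return it to membranes, 0 had an unadjusted p under 0.05. The acyl-CoA synthetase ACSL5 had a log2 signal of 7.33, 6.96 and 7.04 in overexpressing cells and 7.40, 7.46 and 7.43 in control cells, a log2 fold change of −0.32 (95% interval −0.65 to 0.01, adjusted p = 0.871 from limma's test). Its groups did not overlap. The lysophosphatidylcholine acyltransferase LPCAT2 had a log2 fold change of −0.38 (95% interval −0.88 to 0.13), with overlapping groups, and lay at −0.585 without control replicate 1 and −0.205 without control replicate 2. ACSL6, another acyl-CoA synthetase, was dim in both groups and had a log2 fold change of 0.24 (−0.05 to 0.53) without overlap.

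PTGS1, the constitutive cyclooxygenase, had the lowest fold change of the 8 genes, small in size. Its log2 signal was 6.22, 6.13 and 6.22 in overexpressing cells, against 6.68, 6.35 and 6.58 in control cells. The groups did not overlap, with all overexpression arrays lowest, and control replicate 2 came nearest to them. The log2 fold change was −0.35 (95% interval −0.67 to −0.03, 1.27-fold lower), with an exact permutation p = 0.1, the smallest that 3 arrays against 3 allow (two-sided), and an adjusted p = 0.871 from limma's test. Unadjusted, its limma p was 0.0370. With 1 array left out at a time the log2 fold change stayed between −0.44 and −0.28, and the unadjusted p was under 0.05 only without control replicate 2.

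PTGS2 was dim in both groups, with log2 signals of 3.29, 3.35 and 3.24 in overexpressing cells and 3.04, 3.56 and 3.34 in control cells. All 6 values lie below the median of the transcript clusters (4.37), where background limits any fold change. The overexpression arrays lay within the range of the control arrays. Its log2 fold change of −0.02 had a 95% interval of −0.40 to 0.36 and an exact permutation p = 0.9 (two-sided). Without control replicate 2 it was 0.10 and without overexpression replicate 3 it was 0.0045, so no direction can be given.

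PTGES, the glutathione-dependent microsomal synthase that is coupled to PTGS2 in inflamed tissue, had the highest fold change of the pathway. Its log2 signal was 8.89, 9.09 and 9.12 in overexpressing cells, against 8.28, 7.69 and 7.83 in control cells. The groups did not overlap, and control replicate 1 came nearest to the overexpression arrays. Overexpressing cells averaged 9.04 ± 0.12 and control cells 7.93 ± 0.31 (mean ± SD, n = 3 each), a log2 fold change of 1.10 (standard error 0.18, 2.15-fold higher). With 1 array left out at a time the log2 fold change was 0.98 (without control replicate 2) to 1.28 (without control replicate 1). These values chose the pathway and carry no test.

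The other enzymes named as PGE2 synthases had log2 fold changes near 0 and overlapping groups. PTGES2, a Golgi-associated synthase of unrelated sequence, had log2 signals of 7.97, 8.28 and 8.26 in overexpressing cells, against 8.38, 7.79 and 7.98 in control cells. Its highest value was in a control array and the groups overlapped. This gave a log2 fold change of 0.12 (95% interval −0.32 to 0.56, adjusted p = 0.914 from limma's test), and it was −0.01 without control replicate 2. PTGES3, also known as p23, a cochaperone of HSP90 to which a cytosolic synthase activity was ascribed, had log2 signals of 10.71, 10.60 and 10.49 in overexpressing cells, against 10.62, 10.80 and 10.76 in control cells. Its log2 fold change of −0.13 (95% interval −0.43 to 0.18) left the groups overlapping. A further, dimmer transcript cluster of PTGES3, which the highest-mean rule left out (mean 6.91, against 10.66 for the one kept), had a log2 fold change of −0.14 (95% interval −0.59 to 0.31).

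**Figure D2:**
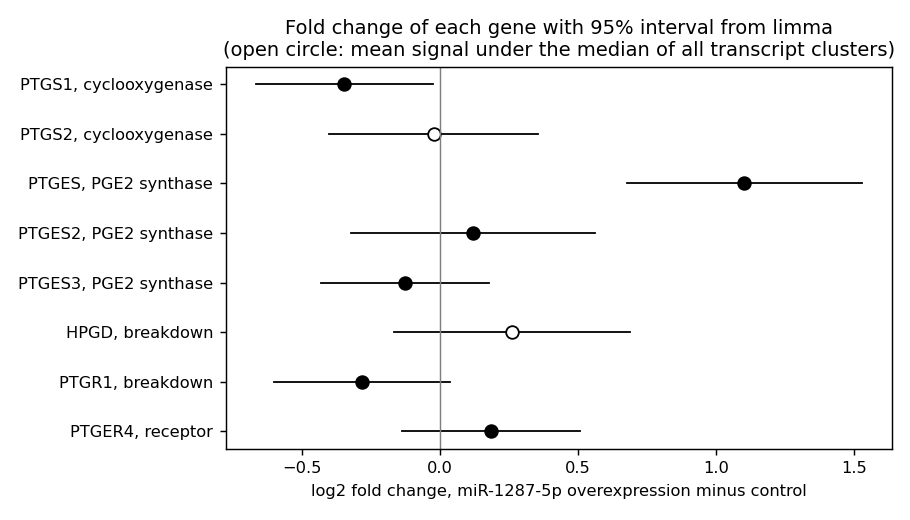
Log2 fold change of the 8 genes (horizontal axis, miR-1287-5p overexpression minus control) with 95% intervals from limma, in pathway order from the cyclooxygenases at the top to the receptor at the bottom; open circles mark genes whose mean signal is below the median of all transcript clusters. PTGES, whose interval is a description only, lies at 1.10, PTGS1 at −0.35 with an interval that ends at −0.03, and the intervals of the other 6 genes cross 0.

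PTGES belongs to the MAPEG family of membrane proteins in eicosanoid and glutathione metabolism, and all 6 members listed could be read. The relatives of PTGES lay between −0.29 and 0.27. The glutathione transferase MGST2, which also makes leukotriene C4, had log2 signals of 5.83, 5.85 and 6.02 in overexpressing cells and 6.35, 6.03 and 6.18 in control cells. Its groups came close without overlapping, and its log2 fold change was −0.29 (95% interval −0.62 to 0.05). The glutathione transferase MGST1 had a log2 fold change of −0.22 (95% interval −0.57 to 0.13) and the leukotriene C4 synthase LTC4S of 0.27 (−0.09 to 0.63), both with overlapping groups.

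Synthases of other prostanoids and the competing lipoxygenase branch had 0 of 5 and 0 of 5 measured genes at an unadjusted p under 0.05. The prostaglandin D2 synthase PTGDS had log2 signals of 5.46, 5.50 and 5.45 in overexpressing cells, against 5.35, 5.27 and 5.28 in control cells. These groups did not overlap, at a log2 fold change of only 0.17 (95% interval −0.10 to 0.44). The carbonyl reductase CBR1, which can turn PGE2 into prostaglandin F2α, had a log2 fold change of 0.07 and the thromboxane synthase TBXAS1 of 0.06, and both changed sign without control replicate 2. In the leukotriene branch, the hydrolase LTA4H had a log2 fold change of −0.33 (95% interval −0.72 to 0.06) and the 5-lipoxygenase ALOX5 of 0.14 (−0.17 to 0.45), each with overlapping groups, while the epidermal lipoxygenase ALOXE3 was at 0.06 (−0.37 to 0.48). LTA4H was at −0.47 without control replicate 1 and at −0.23 without control replicate 2.

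Of the breakdown enzymes, HPGD had a log2 fold change above 0 and the reductases lay below 0. HPGD, the 15-hydroxyprostaglandin dehydrogenase that inactivates PGE2, had log2 signals of 4.34, 3.99 and 4.22 in overexpressing cells and 3.60, 4.09 and 4.08 in control cells. Control replicate 1 was the lowest array and the groups overlapped, with both means below the median of the transcript clusters. HPGD thus had a log2 fold change of 0.26 (95% interval −0.17 to 0.69), and 0.10 without control replicate 1.

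PTGR1, the reductase that acts on the 15-keto product of HPGD and also inactivates leukotriene B4, had log2 signals of 7.34, 7.11 and 7.19 in overexpressing cells, against 7.38, 7.62 and 7.49 in control cells. The groups did not overlap, with the overexpression arrays lower and replicate 1 of each group nearest to each other. The log2 fold change was −0.28 (95% interval −0.60 to 0.04, exact permutation p = 0.1, two-sided, and adjusted p = 0.871 from limma's test).

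PTGR2, a second reductase of 15-keto-PGE2, had log2 signals of 5.97, 5.84 and 5.80 in overexpressing cells, against 5.98, 6.66 and 6.42 in control cells. Control replicate 1 lay next to the overexpression arrays and the other 2 control arrays stood higher. The log2 fold change was −0.48 (95% interval −0.93 to −0.04, adjusted p = 0.871 from limma's test), and it was −0.67 without control replicate 1 and −0.33 without control replicate 2. Its unadjusted limma p, 0.0379, was 0.0638 with the replicate number as a block, and with 1 array left out at a time it was under 0.05 only without control replicate 1. PTGR3, the third of these reductases, had a log2 fold change of −0.15 (95% interval −0.44 to 0.15) with groups that did not overlap. Of the 4 genes listed for breakdown, the groups did not overlap in 3, all lower, against 4.33% of all transcript clusters. The list median was −0.21, and 1 of 4 had an unadjusted p under 0.05 (PTGR2), against 2.44% of all transcript clusters lower at that level. Of 5 listed prostaglandin transporters, 0 had a transcript cluster with their symbol here.

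Among the PGE2 receptors, PTGER4 (EP4) and PTGER3 (EP3) could be read. PTGER4, which signals through cyclic AMP and phosphoinositide 3-kinase, had log2 signals of 6.84, 6.49 and 6.62 in overexpressing cells, against 6.44, 6.48 and 6.47 in control cells. The control arrays were nearly equal, and overexpression replicate 2 lay just above them. The log2 fold change was 0.19 (95% interval −0.14 to 0.51, exact permutation p = 0.1, two-sided, and adjusted p = 0.871 from limma's test), and 0.09 without overexpression replicate 1. With array medians centred or under cyclic loess, the groups of PTGER4 overlapped. PTGER3, which lowers cyclic AMP, was dim in both groups, with means of 3.16 and 3.02 in overexpressing and control cells, and had a log2 fold change of 0.14 (95% interval −0.31 to 0.59). Of the 6 genes listed for other prostanoid receptors, the 5 receptors lay above 0 and PTGFRN, which is no receptor of a prostanoid but a regulator of the prostaglandin F receptor, lay at −0.11. The median of the list was 0.12, beside 0.03 over all transcript clusters, and 0 had an unadjusted p under 0.05. The prostacyclin receptor PTGIR had a log2 fold change of 0.31 (95% interval −0.03 to 0.66), the prostaglandin F receptor PTGFR of 0.36 (−0.21 to 0.92) and the thromboxane receptor TBXA2R of 0.18 (−0.12 to 0.48). PTGFR turned on single arrays, with 0.195 without control replicate 1 and 0.635 without control replicate 2.

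**Figure D3:**
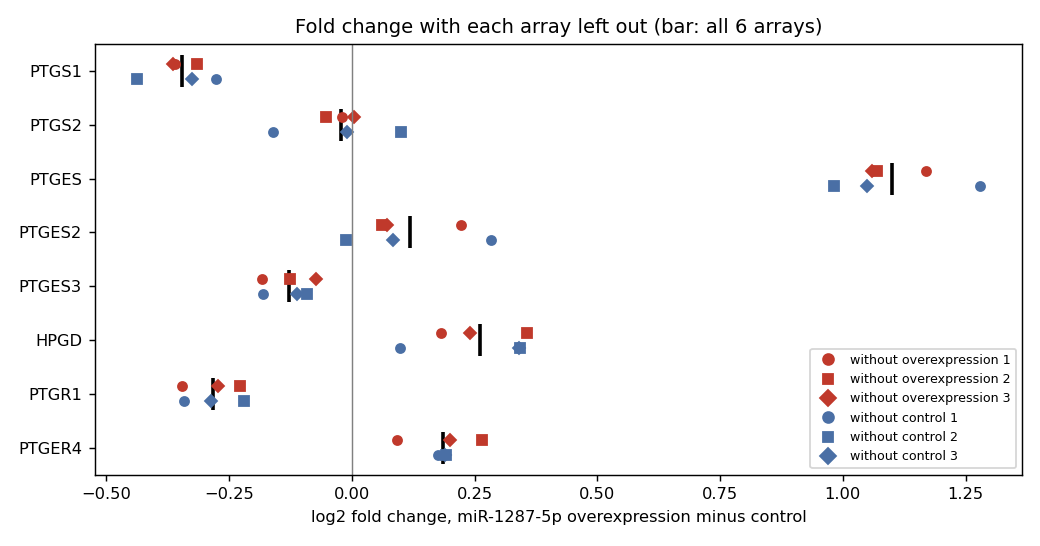
Log2 fold change of the 8 genes (horizontal axis, miR-1287-5p overexpression minus control) over all 6 arrays (black bar) and with each array left out, overexpression arrays in red and control arrays in blue. PTGES stays between 0.98 and 1.28, PTGS1 between −0.44 and −0.28, and PTGS2 and PTGES2 have values on both sides of 0.

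Genes downstream of EP2 and EP4 showed small values. In the cyclic AMP pathway 11 of 16 measured genes lay above 0, with a list median of 0.09. Of the cyclic AMP-responsive genes 6 of 7 did, with a list median of 0.09. Over all transcript clusters, 29735 of 53617 lay above 0, with a median of 0.03. None of the measured genes of either list had an unadjusted p under 0.05. The CREB coactivator CRTC2 had log2 signals of 8.21, 8.34 and 8.49 in overexpressing cells, against 8.15, 7.90 and 8.13 in control cells, a log2 fold change of 0.29 (95% interval −0.05 to 0.62). The adenylyl cyclases ADCY9 and ADCY3 had log2 fold changes of 0.20 each, with intervals of −0.10 to 0.50 and −0.12 to 0.51. These 3 genes had the smallest p of the 16. Their groups did not overlap, and the control array nearest to the overexpression arrays was replicate 1. Across the list, 3 of 16 had groups without overlap, all higher, against 6.88% of all transcript clusters. Among responsive genes, the AP-1 subunit JUNB had a log2 fold change of 0.31 (95% interval −0.08 to 0.71), the kinase SIK1 of 0.21 (−0.10 to 0.52) and FOS of 0.09 (−0.25 to 0.44), all with overlapping groups.

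Of the factors known to induce PTGS2 and PTGES, EGR1 had the highest fold change. Its log2 signal was 8.63, 8.94 and 9.03 in overexpressing cells, against 8.54, 8.10 and 8.04 in control cells. The groups did not overlap, with the overexpression arrays higher and replicate 1 of each group nearest to each other. EGR1 had a log2 fold change of 0.64 (95% interval 0.20 to 1.08, exact permutation p = 0.1, two-sided, adjusted p = 0.865 from limma's test), and it was 0.55 to 0.80 with 1 array left out at a time. In PTGES and EGR1 alike, replicate 1 was the lowest overexpression array and the highest control array. The same held for CRTC2, JUNB and NFKB2, so this order is not particular to PTGES and EGR1. Whether EGR1 acts on PTGES in these cells was not tested.

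The NF-κB subunit NFKB2 had log2 signals of 8.15, 8.36 and 8.33 in overexpressing cells, against 8.09, 7.75 and 7.98 in control cells. The groups did not overlap, with a log2 fold change of 0.34 (95% interval −0.0011 to 0.68, adjusted p = 0.871 from limma's test). TNF, the cytokine, had a log2 fold change of −0.24 (95% interval −0.62 to 0.13). Of 8 measured inducers, 1 had an unadjusted p under 0.05 (EGR1), where 2.96% of all transcript clusters were higher at that level. Among 7 genes that NF-κB induces together with PTGS2, the chemokine CCL2 had a log2 fold change of 0.40 (95% interval 0.03 to 0.77) at means of 2.61 and 2.21 in overexpressing and control cells, below the median of the transcript clusters, and of 0.26 without overexpression replicate 2. The chemokines CXCL8 and CXCL2 had log2 fold changes of −0.36 (95% interval −1.01 to 0.30) and 0.16 (−0.20 to 0.52), so this list had values on both sides of 0. CXCL8 lay between −0.67 (without control replicate 1) and −0.15 (without control replicate 2) with 1 array left out, and CXCL2 between 0.04 (without overexpression replicate 1) and 0.27 (without overexpression replicate 2).

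Glucocorticoids repress PTGS2 and PTGES, and hydrocortisone was in the medium of both groups. HSD11B1, which regenerates active cortisol, had log2 signals of 5.86, 5.66 and 4.93 in overexpressing cells, against 4.52, 4.73 and 4.38 in control cells. Overexpression replicate 3 lay close to the control arrays, and the log2 fold change of 0.94 (95% interval 0.36 to 1.52, adjusted p = 0.817 from limma's test) was 1.22 without that array and 0.75 without overexpression replicate 1. The other 6 measured genes of the glucocorticoid list lay between −0.38 and 0.10. The phospholipase inhibitor annexin A1 (ANXA1) had a log2 fold change of −0.38 (95% interval −1.18 to 0.42) and the kinase SGK1 of −0.09 (−0.38 to 0.21). ANXA1 was at −0.75 without control replicate 1 and at −0.04 without control replicate 2. The glucocorticoid receptor itself was not analysed here. Around PTGES3, the chaperone HSPA4 had a log2 fold change of −0.46 (95% interval −1.04 to 0.11), the HSP90 cochaperone CDC37 of 0.15 (−0.17 to 0.48) and STIP1 of −0.0040 (−0.28 to 0.27), and 0 of the 4 measured chaperone genes had an unadjusted p under 0.05. HSPA4 was at −0.71 without control replicate 1 and at −0.26 without control replicate 2.

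**Figure D4:**
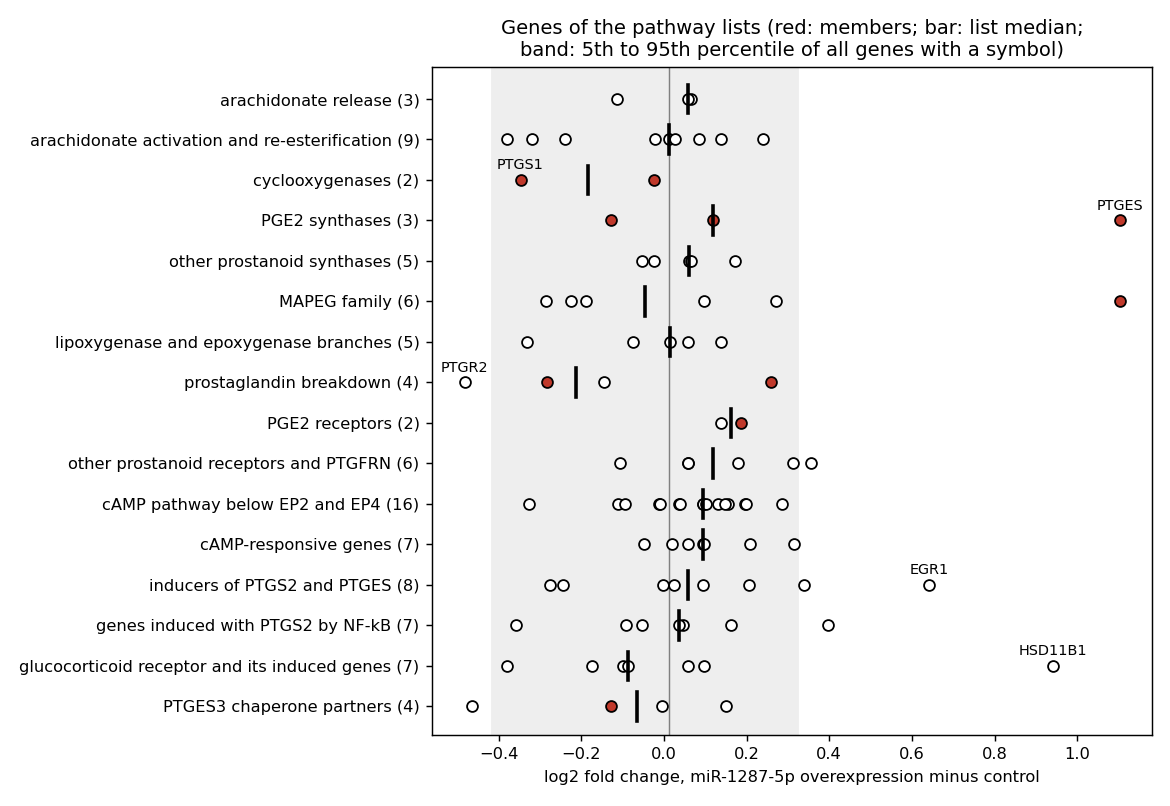
Log2 fold change (horizontal axis, miR-1287-5p overexpression minus control) of each measured gene in 16 lists around PGE2, with the 8 genes in red, the number of measured genes in brackets, the list median as a bar and the 5th to 95th percentile of all 14884 genes as a band (−0.42 to 0.33). PTGES at 1.10, HSD11B1 at 0.94 and EGR1 at 0.64 lie to the right of the band, and PTGR2 at −0.48 and HSPA4 at −0.46 to the left. CCL2, PTGFR and NFKB2 lie just past the right edge. The other genes of these lists that the text names lie inside the band.

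Across the 82 measured genes of the lists other than the 8 described first, 0 passed the adjusted threshold. At an unadjusted p under 0.05, 3 were higher (EGR1, CCL2 and HSD11B1) and 1 lower (PTGR2), where 2.96% and 2.44% of all transcript clusters were higher and lower. Their median log2 fold change was 0.04, beside 0.03 over all transcript clusters. The lists were chosen with earlier results of these data known, so these counts are a description and no test.

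The genes whose values over the 6 arrays were most like those of PTGES were EFNA3, SNAR-G2, ZNF629, LENG1 and NLRX1, by Pearson's r among 10347 brighter genes with a symbol. The r was 0.999 for the ephrin ligand EFNA3, 0.994 for the small noncoding RNA SNAR-G2, 0.993 for the zinc finger gene ZNF629, 0.992 for LENG1 and 0.991 for NLRX1, a mitochondrial protein of the NLR family. The 6 points fall into the 2 groups, and none of these 5 genes had overlapping groups, so each r holds the difference between the groups and is given as a description. EFNA3 had log2 signals of 6.66, 6.70 and 6.73 in overexpressing cells, against 6.41, 6.21 and 6.28 in control cells, the same order of arrays as PTGES at a log2 fold change of 0.40. NLRX1 had the next steepest difference after PTGES among these genes, with 7.88, 7.89 and 7.93 in overexpressing cells, against 7.50, 7.05 and 7.24 in control cells, a log2 fold change of 0.64.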

How the data were processed

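Total RNA of 6 SUM159 cultures was profiled on Affymetrix Human Gene 2.0 ST arrays. Per the submitters' processing notes the authors used Partek 6.6 and RMA, which corrects the background, equalizes the distribution of the arrays by quantiles and summarizes probes by median polish, and deposited the resulting log2 values. A filtering step is named without detail, and the genome build is not given in the sources used here. RMA compresses the fold changes of dim genes.

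Gene symbols came from the platform's probe table, updated through the RefSeq table of GRCh38.p14. It gives 1 symbol to 16098 transcript clusters and leaves 37519 unnamed here. The moderated linear model of limma 3.58.1 (R 4.3.3) compared the groups (two-sided p adjusted by Benjamini-Hochberg across 53617 transcript clusters), and single genes also had an exact permutation test. The fit was tested on simulated data with independent noise, where the mean estimates of the log2 fold change were checked. That noise lacks deviations that transcript clusters of an array share. The number of arrays limits the precision.

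The genes and the 17 lists were chosen with earlier results of these data known. Besides the genes of the set, up to 3 genes with the smallest p per list and the 5 genes most like PTGES were named. Alternatives were an intensity trend, the methods' t-test (unpaired Student test), the replicate number as a block, median centring, cyclic loess, no dim transcript clusters, only named ones, array weights, the mean of a symbol's transcript clusters, and each array left out.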

Additional observations from a re-analysis of the deposited data

How the results depend on the processing

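PTGES kept its direction in all 15 alternatives (log2 fold change 0.98 to 1.28), as did PTGS1, PTGES3, PTGR1 and PTGER4, and HPGD in the 14 that include it. For PTGES, PTGS1, PTGR1 and PTGER4 the groups did not overlap, so leaving out 1 array could not have changed their direction. Of the 7 genes other than PTGES, 0 passed an adjusted p of 0.05 in limma under any alternative. The counts that include PTGES, which chose the pathway, are no test of it: with it, 1 of 8 passed with array weights and 0 with each array left out. With those weights, control replicate 3 had a weight of 7.91 while control replicates 1 and 2 had 0.366 and 0.514, and the share of transcript clusters at an unadjusted p under 0.05 was 22.1%, against 5.40% without weights. That share was 12.9% without control replicate 1. Over all transcript clusters, 2 passed the adjusted threshold, 25 with array weights, 5 with dim ones left out, 3 with an intensity trend or only named ones, 1 under cyclic loess, and 0 with the methods' t-test or with any array left out. Of the 7 genes, 2 passed the methods' t-test before adjustment (PTGS1 and PTGR1), against 5.73% of all transcript clusters, and 0 after it. At an unadjusted limma p under 0.05 there was 1, PTGS1, over all arrays and 2 with array weights (PTGS1 and PTGR1). There were 0 with the replicate number as a block and 0 with an array left out, except without control replicate 2 (PTGS1). With PTGES these counts were 2 over all arrays, 1 with the block and 1 to 2 with an array left out. The share of all transcript clusters at that level was 4.03% with the block. It was 4.32% and 3.65% without control replicates 2 and 3, and 5.67%, 4.48% and 4.11% without overexpression replicates 1, 2 and 3. Of all 8 genes, PTGES included, 4 had separated groups, against 6.88% of all transcript clusters higher and 4.33% lower. There were 3 with array medians centred or cyclic loess, where PTGER4 overlapped, and 4 to 5 with an array left out. The share over all transcript clusters was not counted in those settings, and groups separate more easily with an array fewer. Same-numbered arrays did not deviate together (r of their deviations −0.473, −0.00175 and −0.0809), no array correlated best with its own number, and with the block 0 transcript clusters passed the adjusted threshold.

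With 1 array left out, the log2 fold change of 30 of the 53 genes named moved by a ratio of over 1.5 in either direction. This ratio is of log2 values, so a gene near 0 passes it with a small shift. Of these 30 genes, 8 changed sign. Those 8 ranged from −0.16 to 0.101 for PTGS2, −0.0122 to 0.284 for PTGES2, −0.00471 to 0.133 for ABHD6, −0.0872 to 0.294 for FAAH, −0.0294 to 0.158 for CBR1, −0.0355 to 0.172 for TBXAS1, −0.0682 to 0.233 for ALOXE3 and −0.0273 to 0.0274 for STIP1. With array weights, CBR1 (−0.0848), TBXAS1 (−0.128) and STIP1 (0.0127) also changed sign. The cause was not tested.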
